A study of Mus musculus with 16 samples.

Results

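Liver transcripts of mice on a high-fat diet were divided by whether an N6-methyladenosine (m6A) peak fell in their gene. Of 20715 genes with a protein-coding RefSeq entry, 7552 reached at least 10 CPM (reads scaled to library size) in both high-fat mRNA libraries, and 7548 of these had a known span in the mm10 mouse genome. A gene was called methylated if a peak summit lay in its span in both m6A peak lists, which held for 3965 genes or 52.5% of the 7548. It was called unmethylated if no summit lay there in either list, which held for 1889 genes or 25.0%. The other 1694 genes had a summit in 1 list only and were set aside. Membership therefore rests on the peak lists and on mRNA level, so levels and peak values are given below as a description, without a test.

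The animals were male C57BL/6 mice, 16 weeks old, that had received the high-fat diet (HF) for the last 8 weeks, and no group on ordinary chow was compared here. HF liver was represented by 2 libraries each of polyadenylated mRNA, of ribosome-nascent chain mRNA (RNC, the mRNA pelleted with translating ribosomes) and of m6A-immunoprecipitated RNA fragments. The mRNA and RNC libraries were each made from material pooled over independent experiments, so the spread between libraries is that of pools and not of single mice. A second diet group, the same diet with betaine (HB), is used only where stated.

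The mRNA libraries held 11437462 and 11570775 reads, the RNC libraries 5778439 and 6431510 reads, and the m6A lists 22060 and 24141 peaks. The liver origin was checked on marker genes. All 10 hepatocyte markers exceeded 10 CPM and summed to 49907 and 51620 RPKM (CPM per kilobase of the longest transcript). Markers of Kupffer, endothelial and stellate cells summed to 145 to 211 RPKM, those of red blood cells to 675 and 523, and those of lymphocytes to 3.57 and 5.54. In whole liver, fewer cells of a type and less RNA per cell cannot be told apart.

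N6-methyladenosine is the most common internal modification of mRNA. A nuclear complex built on METTL3, METTL14 and WTAP writes it, FTO and ALKBH5 can remove it, and YTH-domain proteins bind it. It is typically found near stop codons, in the last exon and in long internal exons, and YTH-domain readers are known to direct marked mRNAs to decay or to affect their translation.

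A peak list gives positions and not letters, and RefSeq sequence was at hand only around start sites, so the sequences below show the few summits that both libraries placed within 100 bases of each other in such a window. Of 6149 genes with a window, 48 and 58 had a summit there, and 6 had a shared one. Below are 30 bases around the replicate 1 summit for 5 of them. In the sixth the summit lay too close to the window's edge to read 30 bases. Letters are on the gene's own strand, with GGAC or its reverse complement GTCC in capitals, the core of the sequence that the m6A methyltransferase is known to prefer.
Rbbp6: tGGACtccgggcctaggccctctccccgca
Ppp2r5c: GGACcgggtctgggGTCCccgcgtcggcgg
Wbscr22: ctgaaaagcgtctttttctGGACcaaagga
Gabpb2: tcacgtaagccacgtaatcggtgatcctgc
Il15ra: aagtgaacaaggctgaagtcaggtgtgggc

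These windows lie, in GRCm38.p6, at chr7:122970478-122970507 for Rbbp6, chr12:110447409-110447438 for Ppp2r5c and chr5:135065062-135065091 (minus strand) for Wbscr22. Gabpb2 lies at chr3:95217950-95217979 (minus strand) and Il15ra at chr2:11705469-11705498. All 5 summits are upstream of an annotated start, by 71 bases in Rbbp6, 98 in Ppp2r5c, 117 in Wbscr22, 22 in Gabpb2 and 228 in Il15ra. GGAC on the gene's strand stood in the windows of Rbbp6, Ppp2r5c and Wbscr22. Of 328510 windows of 30 bases taken from all start regions, 9.88% held it, and 19.2% held it on either strand, and 5 windows are too few to be read against these shares. Wbscr22 shows how the span rule works at its edge. Its summits were 11 bases apart and reached 12.98-fold and 19.2-fold enrichment, yet it counts as unmethylated because the site lies before the gene's first base. Rbbp6, Ppp2r5c, Gabpb2 and Il15ra count as methylated through these or other summits inside their spans.

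Methylated transcripts were long and of moderate abundance, and unmethylated transcripts were short and abundant. The median of the longest transcript per gene was 3714 bases in the methylated group, 2515.5 in the genes with 1 summit library and 1806 in the unmethylated group, so the methylated median was 2.06 times the unmethylated one. The middle 50% of methylated genes ran from 2475 to 5359 bases and that of unmethylated genes from 1192 to 2644 bases. Of the unmethylated genes, 9.79% were longer than the methylated median, and of the methylated genes 11.7% were shorter than the unmethylated median. Gene spans, introns included, differed more, with medians of 40360 and 9110 bases.

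The share of methylated genes climbed with each decile of transcript length, from 19.2% in the shortest decile (292 to 1132 bases) to 87.4% in the longest (6281 to 23495 bases). Over deciles of gene span it went from 21.1% to 95.6%. The share rose with each of length and span also within quintiles of the other, although a quintile still covers a wide range. Among the quintile of genes with the shortest transcripts the share was 14.9% in the tertile with the shortest spans and 36.4% in the tertile with the longest. Among the quintile with the shortest spans it was 14.5% in the tertile with the shortest transcripts and 37.2% in the tertile with the longest. The summits could fall in introns, since a gene's whole span was searched, and how far span alone sets the chance of a summit was not tested.

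The mRNA level of methylated genes had medians of 9.43 and 9.03 RPKM in the replicate libraries, and that of unmethylated genes 34.5 and 32.7 RPKM. Both libraries thus placed the methylated group lower, by -1.87 and -1.86 on the log2 RPKM scale (mean -1.86 ± 0.01 SD, n = 2), a 3.64-fold difference. RPKM is itself divided by transcript length, and within quintiles of that length the differences were -1.01 and -0.97, or 1.99-fold. On the CPM scale, which does not divide by length, the difference was -0.89 and -0.91 log2 CPM. Within the length quintiles it was -0.94 and -0.93 log2 CPM, so grouping by length did not narrow it. Since the floor of 10 CPM in both mRNA libraries was part of the selection, genes near it show what was left out. Fndc3b, Crnkl1 and Ghdc were just inside at 10.03 CPM in their lower library, and Hps6, Tti1 and Hgh1 just outside at 9.97 CPM.

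**Figure D1:**
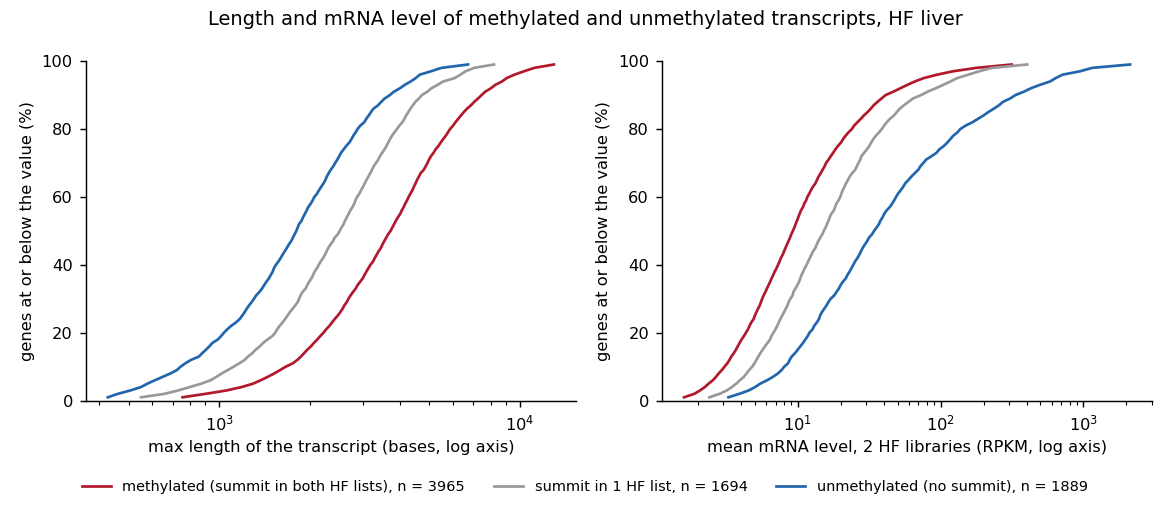
Cumulative distributions of the longest transcript per gene (left, bases, log axis) and of the mean mRNA level (right, RPKM, log axis) for the 3965 methylated, 1694 intermediate and 1889 unmethylated genes, drawn at percentiles 1 to 99. The methylated curve lies to the right for length (median 3714 against 1806 bases) and to the left for level, and the intermediate genes lie between the curves in both panels.

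Few but abundant transcripts made up the unmethylated pool. Unmethylated genes were 25.0% of the genes at the level floor and held 51.0% and 52.5% of all mRNA reads, whereas methylated genes held 29.8% and 28.5%. In the ribosome-bound libraries the unmethylated share was 47.4% and 46.3% and the methylated share 32.2% in both. The unmethylated share was thus lower, and the methylated share higher, in both RNC libraries than in either mRNA library. These shares are weighted by the most abundant genes. Unmethylated Alb had 45116 and 52406 CPM in mRNA and 37511 and 30323 in RNC, and Apoe 29228 and 36676 against 16213 and 14855. Unmethylated Mug1 went the other way, from 1323 and 2077 CPM to 6959 and 11240. The class medians of the per-gene ratio, given below, changed order between the RNC libraries. From the lowest to the highest decile of mRNA RPKM the methylated share of genes went from 83.6% to 19.6%. RPKM divides by length, so low RPKM also picks out long transcripts. Over deciles of CPM the share went from 59.3% to 28.8%, and it was still 57.7% in decile 5. The gradient with level was not confined to one length class, although it was flat at the low end. In the longest quintile of transcripts the share was 87.1%, 86.5%, 84.1%, 69.7% and 60.9% from the lowest to the highest quintile of RPKM, the last over 46 genes. By quintiles of CPM it was 86.3%, 86.2%, 85.2%, 87.6% and 73.3% there. In the shortest quintile of transcripts it went from 29.9% to 15.5% by CPM.

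**Figure D2:**
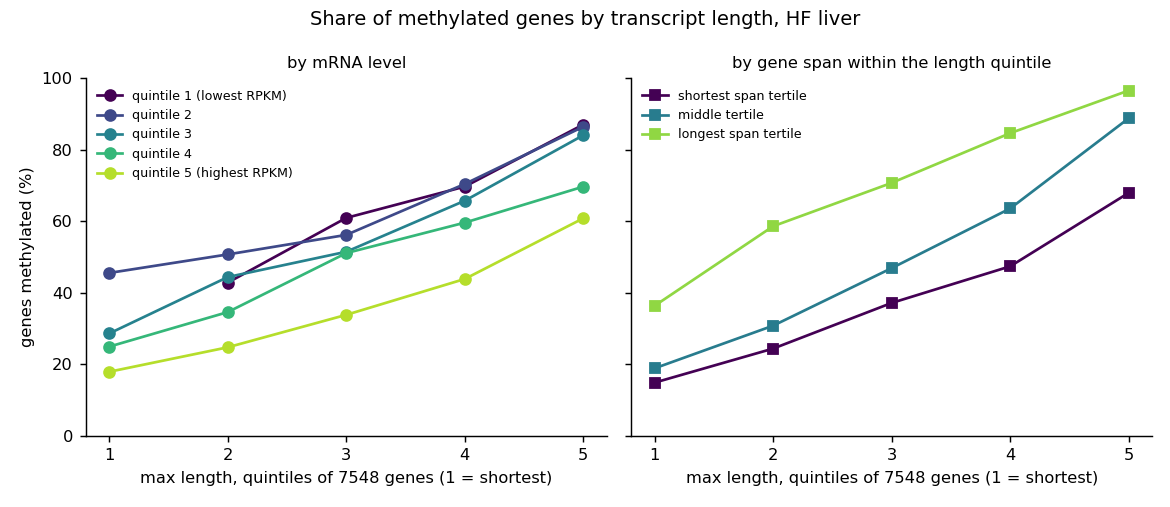
Percentage of genes that were methylated in each quintile of longest transcript length (x axis, 1 = shortest), with lines for quintiles of mRNA RPKM (left, points with at least 20 genes) and for tertiles of gene span within the length quintile (right). The share rises from left to right on every line. It is lowest for the highest RPKM quintile and, in every length quintile, for the shortest span tertile.

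The most abundant members show both classes among secreted and lipid-carrying liver proteins. Apoa1, the main protein of high-density lipoprotein (GRCm38.p6, chr9:46228630-46230469), was the most abundant methylated transcript, at 13425 and 11044 RPKM. Its summit reached 7.34-fold and 8.87-fold enrichment, 44 bases apart in the replicates. Fabp1, the fatty acid binding protein of liver, stood at 11793 and 10946 RPKM with 2 summits in each list. Serpina3k, a plasma serine protease inhibitor, had 1912 and 2091 RPKM and summits 2 bases apart. Scp2, at 1191 and 1028 RPKM, had summits of 6.26-fold and 25.0-fold, but the nearest pair lay 7479 bases apart.

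Among the unmethylated transcripts, Alb, which encodes serum albumin (chr5:90460870-90476602), had 21470 and 24883 RPKM. Apoe, a ligand for lipoprotein receptors, had 22520 and 28193 RPKM. Apoa2, a small protein of high-density lipoprotein, was the highest of all at 50662 and 50601 RPKM, and Apoc3, an inhibitor of lipoprotein lipase, had 17365 and 14659. Apoc3 lies only a few kilobases from Apoa1 (chr9:46233050-46235636) and had no summit in any of the 4 lists, HB included. The major urinary protein genes split as well, with Mup2 methylated and Mup10 not. These genes are nearly identical copies, so both their counts and their peaks are uncertain.

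Sequences upstream of the start sites were examined because methylation class was not defined by them. The windows before Apoa1 (chr9:46228380-46228629) and Alb (chr5:90460620-90460869), the most abundant methylated and unmethylated genes by reads, are given from RefSeq with each CG dinucleotide in capitals.
Apoa1: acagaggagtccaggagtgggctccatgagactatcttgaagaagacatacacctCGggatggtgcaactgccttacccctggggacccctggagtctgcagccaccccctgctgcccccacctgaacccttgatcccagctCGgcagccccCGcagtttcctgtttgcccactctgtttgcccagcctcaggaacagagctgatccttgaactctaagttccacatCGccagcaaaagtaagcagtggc
Alb: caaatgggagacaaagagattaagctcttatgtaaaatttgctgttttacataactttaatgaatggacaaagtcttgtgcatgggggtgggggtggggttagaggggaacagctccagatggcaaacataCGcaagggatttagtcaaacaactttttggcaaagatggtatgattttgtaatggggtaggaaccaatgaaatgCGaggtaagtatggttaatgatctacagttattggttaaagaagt

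Both liver genes are poor in CG, with 4 and 2 in 250 bases. The median was 18 over 3227 methylated genes with a window, 16 over 1387 intermediate genes and 14 over 1535 unmethylated genes, against 6 over all 27025 start regions in the table. Matched for transcript length and mRNA level, methylated genes had 1.22 more CG per window. TATAAA within 50 bases before the start, on the gene's strand, stood in 1.27% of methylated and 2.28% of unmethylated genes, and in 2.88% of all start regions. These shares describe letters only.

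Peaks of the methylated genes were few per gene and only partly reproducible in place. The median was 2 summits per gene in each list, with exactly 1 in 1377 and 1139 genes, and up to 52 and 81 in Dpyd, a very long gene for a pyrimidine-degrading enzyme. The best summit of a methylated gene had a median enrichment of 11.5-fold and 14.6-fold over the local background, as deposited by the authors, whose lists start at 6.00-fold. In genes with a summit in 1 list only, the best one had 8.30-fold and 9.38-fold. The rank order of best enrichment was only loosely shared by the replicates (Spearman rho 0.39 over 3965 genes, which share the 2 libraries).

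In 2037 of the 3965 methylated genes, or 51.4%, a summit of one library lay within 100 bases of one of the other. In 1180 genes, or 29.8%, the nearest pair was over 1000 bases apart. These genes count as methylated by the span rule, without a site that both libraries placed alike. Whether they carry methylation at different places was not tested. A shared site was present in 77.7% of methylated genes in the shortest quintile of spans, against 44.3% to 59.8% in the other quintiles. It was present in 43.9% of those in the lowest quintile of CPM and 67.3% in the highest.

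Shared and unshared summits differed in place. Over methylated genes with known strand, 38.0% of shared summits fell in the last decile of the gene span in each list, against 14.3% and 15.8% of unshared ones. Within 2 kb of the gene's end lay 30.1% of shared summits, where even placement over the same spans would give 11.03%. For unshared summits the shares were 6.70% and 7.84%, where even placement would give 4.27% and 4.40%. The 2 lists are not independent for shared summits, which were matched between them.

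**Figure D3:**
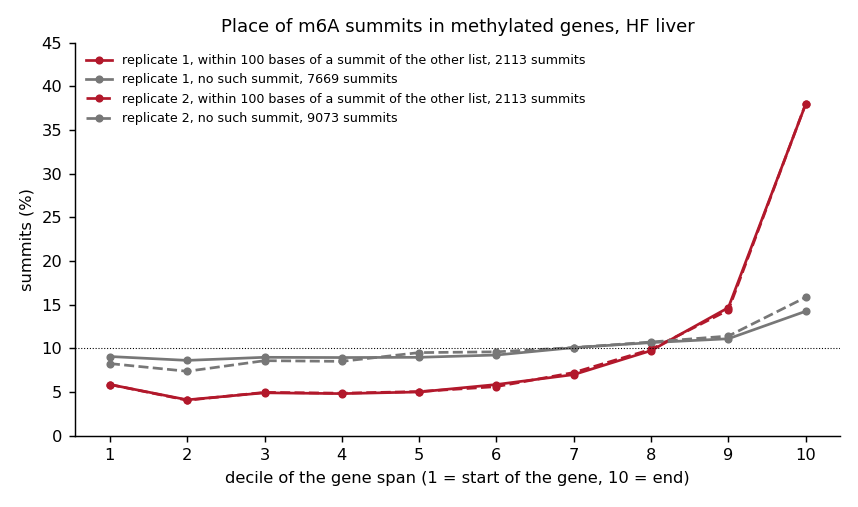
Percentage of m6A summits in each decile of the gene span (x axis, from start to end of the gene) for methylated genes of known strand, with lines for summits within 100 bases of a summit of the other list and for those without one, in replicates 1 and 2. The dotted line marks even placement; shared summits reach 38.0% in the last decile, and unshared ones stay between 7.38% and 15.8% throughout.

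The methylated genes with the highest enrichment in both lists, among those of at least 50 CPM, were Crp, Tmsb4x, Jmjd1c, Acsl1 and Jund. Crp encodes C-reactive protein, an acute-phase protein. Its single summit reached 44.2-fold and 53.9-fold, 9 bases apart, and both HB lists had a summit in it. Tmsb4x, an actin-binding peptide, reached 40.0-fold and 42.7-fold, and its nearest summits were 1 base apart. Jmjd1c, a relative of the histone demethylases, had 10 and 11 summits with a best of 38.7-fold and 41.7-fold. Acsl1, which activates fatty acids with coenzyme A, reached 38.7-fold and 44.4-fold, and Jund, an AP-1 transcription factor, 37.5-fold and 43.1-fold.

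Each of these 5 genes was set beside the unmethylated gene closest to it in length and level. Crp, at 82.8 and 87.4 CPM in mRNA, had 5.02 and 57.2 CPM in RNC. Polr2l, a subunit of RNA polymerases and its unmethylated neighbour in length and level, went from 81.8 and 88.6 CPM to 27.9 and 53.6 CPM. Jund went from 111 and 86.3 CPM in mRNA to 71.0 and 9.17 CPM in RNC. In Crp and Jund the 2 RNC libraries thus lay far apart, and edgeR's quasi-likelihood test called neither (adjusted p = 0.510 and 0.503).

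Acsl1 had 2281 and 1281 CPM in mRNA and 1610 and 700 CPM in RNC (edgeR adjusted p = 0.503). Its unmethylated neighbour Mug1, a plasma protease inhibitor, had 1323 and 2077 CPM in mRNA and 6959 and 11240 CPM in RNC. Both RNC values of Mug1 were above both mRNA values, with a log2 fold change of 2.27 ± 0.42 (SE) and an edgeR adjusted p of 0.0428. Ndufb10, of respiratory complex I, beside Tmsb4x, Ints1, of the Integrator complex, beside Jmjd1c, and Fdx1, a mitochondrial ferredoxin, beside Jund did not pass (adjusted p = 0.685, 0.867 and 0.226).

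Some members went against the rule of length. The longest unmethylated transcript was Ubr4, a ubiquitin ligase of 15872 bases with a span of 108875 bases, which had no summit in HF but 4 and 1 in the HB lists. Lrp1, an endocytic receptor of 14891 bases, and Lama5, a laminin chain of 11388 bases, had none in any of the 4 lists. Acvr2b, an activin receptor of 10666 bases, had 1 summit in 1 HB list. Lrp1 stood at 62.4 and 63.0 RPKM and Lama5 at 2.60 and 1.58 RPKM, so long unmethylated transcripts occurred at high and low levels.

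Among the shortest methylated transcripts were Anapc13, of the anaphase-promoting complex, at 408 bases, Slirp, a mitochondrial RNA-binding protein, at 419 bases, and Ndufa5, of respiratory complex I, at 432 bases. Their nearest summits in the replicates were 10, 9 and 22 bases apart. The shortest of all, 1810022K09Rik at 401 bases, had nearest summits 140 bases apart and 0 reads in both RNC libraries. Ndufa5 had 277 and 253 CPM in mRNA and 283 and 281 CPM in RNC. Slirp had 43.5 and 43.2 CPM in mRNA, but 28.7 CPM in one RNC library and 0 reads in the other. Its summits reached 6.31-fold and 6.09-fold, near the 6.00-fold start of the lists.

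The betaine-fed group, whose peak lists took no part in the choice of members, mostly repeated the classes. Of the HF methylated genes, 77.1% had a summit in both HB lists and 6.15% in neither. Of the HF unmethylated genes, 7.73% had one in both HB lists and 71.9% in neither. Genes with a summit in 1 HF list were spread out, with 32.8% in both HB lists and 29.7% in neither. Requiring a shared site in HF changed the first share little, to 81.0%. Length and span are the same for a gene in both diets, so these shares do not separate methylation from them.

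Ribosome association was expressed as the log2 ratio of RNC CPM to mean mRNA CPM, each plus 0.5 CPM, a scale that understates changes of low genes. The question was whether methylated transcripts were more or less ribosome-bound than unmethylated ones. Group medians in RNC replicate 1 were -0.35 for methylated and -0.37 for unmethylated genes, and in replicate 2 they were -0.34 and -0.24. The methylated median was thus higher by 0.03 in one library and lower by 0.10 in the other (mean -0.04 ± 0.09 SD, n = 2).

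When genes were compared within 24 bins of transcript length and mRNA level that held at least 5 genes of each kind, the methylated group was higher by 0.23 and 0.04 (mean 0.14 ± 0.14 SD, n = 2). Methylated genes were higher in both libraries in 12 bins, lower in both in 7, and of opposite sign in 5. The largest bin difference in replicate 1, 4.04, lay in length quintile 4 and level quintile 1. There, 31 unmethylated genes had a median ratio of -4.50, and the same bin gave 0.64 in replicate 2. This bin thus raised the replicate 1 value. With a smooth curve for length and level in place of bins, the differences were 0.15 and -0.02. With gene span in place of transcript length the mean turned to -0.02, with bins of level alone it was -0.06, and with classes made from m6A replicate 1 alone it was -0.01. With a floor of 20 CPM the matched mean was 0.034 ± 0.012, without genes of 0 RNC reads 0.035 ± 0.007, and with bins of length alone 0.061 ± 0.051 (SD, n = 2 each). In HF, the sign and size of this difference therefore depended on the matching and the genes kept, and its mean was close to 1 SD of the 2 libraries in the 24 bins.

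Set side by side, the methylated minus unmethylated gap in median log2(CPM + 0.5) was -0.88 and -0.90 in the mRNA libraries and -0.78 and -0.89 in the RNC libraries. No test is given, since an exact permutation of 2 against 2 libraries cannot go below p = 0.333. One RNC value lay between the mRNA values, so the 2 kinds of library overlapped. In the HB group the methylated set of HF was higher by 0.35 without matching and by 0.24 with it, over RNC counts summed from 2 libraries. Taken singly these gave 0.35 and 0.35 without matching and 0.22 and 0.23 with it. They were summed because the chi-square between them was only 1.40 per degree of freedom, against 98.0 for the HF RNC pair and 34.7 for the HF mRNA pair, so they were counted as 1 sample. The HB value thus has no replicate, and whether it differs from HF was not tested. Its matching used the bins of HF mRNA level, while its ratio was divided by HB mRNA level.

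**Figure D4:**
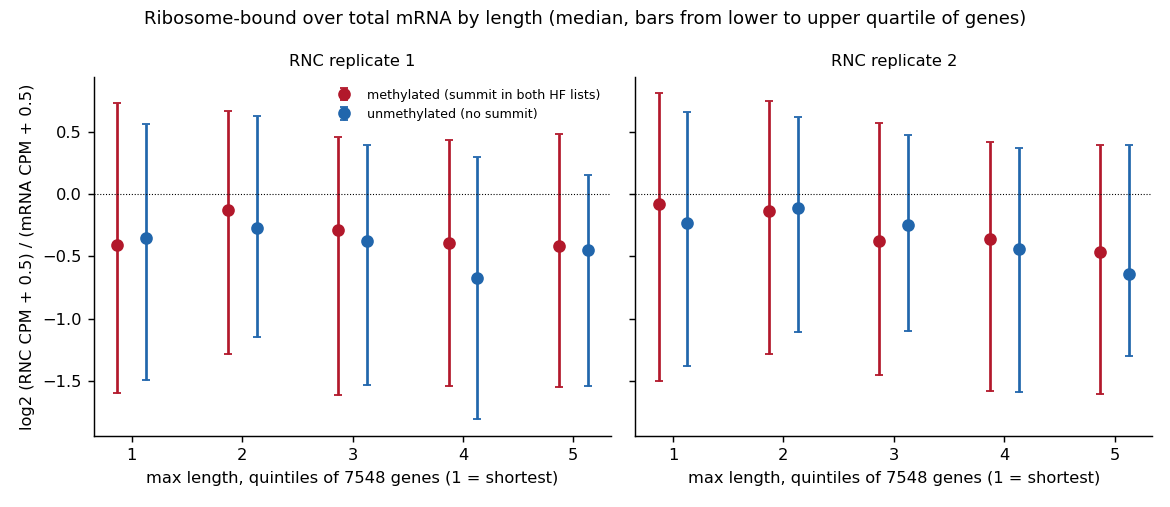
Log2 ratio of RNC to mRNA CPM (each plus 0.5) in quintiles of longest transcript length, with points at the median and bars from the lower to the upper quartile of genes, for methylated and unmethylated genes in RNC replicates 1 and 2. The quartile ranges of the 2 classes overlap in every quintile, and the medians change order between libraries in quintiles 1, 2 and 3.

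Without matching on mRNA level, precision of the RNC libraries differed between the classes. The log2 difference of the 2 RNC libraries had an SD over genes of 2.34 for methylated and 1.93 for unmethylated genes, while that of the mRNA libraries was 0.39 and 0.38. A gene with 0 reads in one RNC library and over 20 in the other occurred 638 times among methylated genes (16.1%) and 173 times among unmethylated genes (9.16%). Zero reads were found for 14.7% and 12.1% of methylated genes, and for 9.53% and 6.03% of unmethylated genes. Absence followed level: in the lowest quintile of mRNA CPM the methylated shares were 32.6% (exact Clopper-Pearson 95% interval 29.5% to 35.7%) and 30.0%, and in the highest quintile 0.371% in both. Within the bins of length and level the classes differed by -0.95 and 1.11 percentage points, of opposite sign in the 2 libraries. The interval covers counting error only, since reads without molecular identifiers are not independent molecules.

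Gene by gene, RNC was compared with mRNA over the 4 HF libraries with edgeR's quasi-likelihood test, with adjustment over all 11998 genes tested. Over all these genes 22.6% were called, 2.86% higher and 19.7% lower in RNC. Of the methylated genes 163 (4.11%) were higher and 318 (8.02%) lower, and of the unmethylated genes 84 (4.45%) were higher and 216 (11.4%) lower. Over the 7548 eligible genes, which like both classes hold no low mRNAs, 3.96% were higher and 9.18% lower. Many of the lower calls had no RNC reads in a library. Over the 7073 genes with a read in both RNC libraries the background was 4.85% higher and 4.81% lower, and over the eligible genes among them 4.91% and 5.51%. There, 5.27% of 3091 methylated genes were higher and 3.98% lower, and 5.10% of 1647 unmethylated genes were higher and 9.35% lower. The filter acted unequally, keeping 3091 of 3965 methylated and 1647 of 1889 unmethylated genes. It kept 123 of 318 lower methylated calls and 154 of 216 lower unmethylated ones. None of these call shares was matched on length or mRNA level, in which the classes differ. Cytosolic and mitochondrial ribosomal protein genes made up 45 of those 154 lower unmethylated genes and 16 of the 123 lower methylated ones, and without them the lower shares were 6.88% and 3.48%.

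These calls rested on the libraries used. Without mRNA replicate 1 or without mRNA replicate 2 edgeR called 0 methylated and 0 unmethylated genes (267 and 271, then 247 and 240, at an unadjusted p under 0.05), and DESeq2 on all 4 libraries called 855 and 535. Without RNC replicate 1 edgeR called 2322 and 1032, and without RNC replicate 2 it called 2435 and 1167, where the lone RNC library was assumed to vary like the mRNA pair. Every single-gene call named here was thus lost when either mRNA library was left out.

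The highest ratios in the methylated class among called genes with RNC reads in both libraries were those of Lpl, Csrnp2 and Wdr37. The nearest summits of the 2 HF lists were 15682 bases apart in Lpl, 14 in Csrnp2 and 1337 in Wdr37. Neither HB list had a summit in Lpl. Lpl, lipoprotein lipase, had 13.3 and 20.1 CPM in mRNA and 370 and 437 CPM in RNC. Its log2 fold change was 4.45 ± 0.33 (SE, edgeR adjusted p = 0.0352). Csrnp2, a nuclear protein, had 15.3 and 17.6 CPM in mRNA and 305 and 364 CPM in RNC. In the unmethylated class they were Tmod1, which caps actin filaments, with 14.0 and 14.9 CPM in mRNA and 181 and 94.5 CPM in RNC, Miip and Ilkap. Miip had 48.3 and 50.7 CPM in mRNA and 333 and 332 CPM in RNC (log2 fold change 2.61 ± 0.17 SE, edgeR adjusted p = 0.0352). The RNC values of these genes lay above their mRNA values without overlap, which was so for 22.0% of methylated, 24.3% of unmethylated and 23.0% of all 7548 genes.

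Among called genes with RNC reads in both libraries, the 3 lowest ratios in each class were of ribosomal proteins or ribosome assembly. Other genes had no RNC reads at all, 188 of the methylated and 52 of the unmethylated ones in both libraries. Rpl10a, a methylated ribosomal protein gene, had 139 and 126 CPM in mRNA and 0.692 and 0.777 CPM in RNC, and Mrps35, of the mitochondrial ribosome, 35.9 and 46.9 CPM against 0.173 and 0.156. Imp3, which acts in ribosomal RNA processing, had 40.3 and 44.1 CPM in mRNA and 0.519 and 0.156 CPM in RNC. Among unmethylated genes Rpl7a had 317 and 375 CPM against 0.346 and 0.622, and Mrpl4 had 54.8 and 47.3 CPM against 0.173 and 0.156. RNC values at this level stand for a handful of reads. Both RNC values lay below both mRNA values in 39.4% of methylated, 41.3% of unmethylated and 39.7% of all eligible genes.

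Gene lists, written from general knowledge with earlier results of these data known, were read against the 52.5% of all eligible genes that were methylated. The methylated share of all genes in the same length and level bins (same bins, in brackets) is a second reference. Counts of members called in RNC are read against the 3.96% higher and 9.18% lower of all eligible genes, and no list was tested.

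Ribosomal proteins were mostly unmethylated, 61 of 78, with 12 methylated (15.4%, where the same bins gave 17.8%). All 12 methylated members, among them Rps18, Rps19 and Rpl41, had a shared site. Rps18, of the small subunit, had 790 and 753 CPM in mRNA and 5.19 and 23.6 CPM in RNC, and unmethylated Rpl13a, of the large subunit, 686 and 703 CPM against 58.8 and 84.3. Both were lower in RNC (log2 fold change -5.88 ± 0.91 SE and -3.42 ± 0.26 SE, edgeR adjusted p = 0.0371 and 0.0352). In all, 58 of the 78 were lower and 0 higher, where 9.18% and 3.96% of all eligible genes were, with median log2 ratios of -5.34 and -4.96 against -0.35 and -0.29 over all eligible genes. Median ratios were -4.72 and -5.03 for the methylated members and -5.61 and -4.67 for the unmethylated ones, so their order changed with the library. Of 72 mitochondrial ribosomal protein genes, 22 were methylated (30.6%, same bins 32.6%) and 28 unmethylated, and 41 were lower in RNC, again against 9.18% of all eligible genes.

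Subunits of the respiratory chain, also short and abundant, were 57 of 75 unmethylated and 7 methylated (9.33%, same bins 19.8%), among the latter Ndufa5, Ndufs4 and Uqcrb. Their median ratios were -0.15 and -0.04, above those of all genes in both libraries, and 3 were higher and 6 lower in RNC, shares near those of all eligible genes. Uqcrq, of complex III, was one of the higher ones, with 1014 and 987 CPM in mRNA and 1965 and 1902 CPM in RNC (log2 fold change 0.81 ± 0.16 SE, edgeR adjusted p = 0.0436). Proteasome subunits were 19 of 34 unmethylated and 9 methylated (26.5%, same bins 26.8%), and 5 were higher and 0 lower in RNC, against 3.96% and 9.18% of all eligible genes. Psmd4, a methylated ubiquitin receptor of the proteasome, had 149 and 136 CPM in mRNA and 625 and 538 CPM in RNC (log2 fold change 1.88 ± 0.18 SE, edgeR adjusted p = 0.0352).

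Among lists of hepatocyte metabolism, most had more unmethylated than methylated members, with exceptions in fatty acid synthesis and methyl donors. Glutathione, glucuronosyl and sulfo transferases, which conjugate drugs and bile pigments, had 21 of 29 members unmethylated and 2 methylated, Ugt2b36 and Sult2a8 (6.90%, same bins 27.5%). Cytochrome P450 enzymes had 25 of 39 unmethylated and 6 methylated (15.4%, same bins 32.2%). The methylated 6 included Cyp7a1, the rate-limiting enzyme of bile acid synthesis, and Cyp7b1 of the alternative route. Several of these enzymes have close copies among which reads may be split. Unmethylated Cyp2e1, which oxidises ethanol, had 3951 and 4465 CPM in mRNA and 1741 and 1594 CPM in RNC, and Gstm1 1345 and 1150 CPM against 457 and 341. Both were lower in RNC (log2 fold change -1.48 ± 0.20 SE and -1.78 ± 0.24 SE, edgeR adjusted p = 0.0352 for each).

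Urea cycle and amino acid enzymes were 30 of 55 unmethylated and 14 methylated (25.5%, same bins 33.7%), and secreted plasma proteins 36 of 64 unmethylated and 19 methylated (29.7%, same bins 30.2%). In cholesterol synthesis, 10 of 22 were unmethylated, among them Hmgcs1 and Fdps of the mevalonate route, and 5 methylated (22.7%, same bins 53.5%). A shared site was present in 1 of these 5. Srebf1, the transcription factor of lipid synthesis, at 210 and 453 CPM, and Fasn, fatty acid synthase, at 154 and 219 CPM, were both unmethylated, Fasn despite a transcript of 9938 bases. The list of fatty acid and triglyceride synthesis was nevertheless split, with 12 of 29 methylated (41.4%, same bins 50.5%), 3 of them with a shared site, and 10 unmethylated. Its methylated members included Acaca and Acacb, the acetyl-CoA carboxylases, Elovl6, an elongase, Gpam, which starts triglyceride assembly, and Lpin2, and its unmethylated ones Acly, Scd1, Dgat1 and Dgat2. Fatty acid oxidation had 18 of 40 unmethylated and 12 methylated (30.0%, same bins 37.8%). Among the enzymes that handle betaine and other methyl donors 12 of 27 were methylated (44.4%, same bins 45.1%) and 12 unmethylated, the latter with Bhmt, Gnmt, Mat1a and Ahcy.

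Regulators leaned the other way. Chromatin regulators had 64 of 76 members methylated and 2 unmethylated, Hdac3 and Hdac6 (84.2% methylated, same bins 76.6%). Insulin and growth factor signalling had 43 of 54 methylated (79.6%, same bins 74.7%), including Insr, the insulin receptor, with 6 and 8 summits, and Ghr, the growth hormone receptor, with 15 and 26 summits over a span of 265598 bases. The 4 unmethylated members were Akt2, Gsk3a, Fgfr4 and Grb7. Genes named Zfp, most of them for zinc finger proteins, had 104 of 133 methylated (78.2%, same bins 62.5%) at a median level of 6.83 RPKM.

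Clock genes had 12 of 17 methylated (70.6%, same bins 55.6%) and nuclear receptors 14 of 28 (same bins 54.2%). A shared site was present in only 2 of the 12 methylated clock genes, below the 51.4% of all methylated genes. Of the 14 methylated receptors 8 had one, slightly above that share. Per2, a repressor of the clock, had 437 and 469 CPM in mRNA and 154 and 102 CPM in RNC, lower without overlap (log2 fold change -1.97 ± 0.29 SE, edgeR adjusted p = 0.0358). Nr1h4, the bile acid receptor FXR, had 500 and 394 CPM in mRNA and 1116 and 1200 CPM in RNC, higher without overlap (log2 fold change 1.23 ± 0.19 SE, edgeR adjusted p = 0.0373). Both are methylated, so members of this class were called in both directions. Hnf4a and Ppara, receptors that govern hepatocyte identity and fatty acid use, were methylated too, Ppara with a summit pair 2 bases apart. Nr1i3, the drug-sensing receptor CAR, and Nr0b2, a repressor of bile acid synthesis, were unmethylated.

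Immediate-early and stress transcription factors were methylated in 14 of 28 cases (same bins 43.1%), and 12 of the 14 had a shared site. These genes are compact, with a median span of 4772.5 bases. Cebpb, a liver transcription factor, reached 32.0-fold and 37.9-fold enrichment, and Gadd45g, a stress-induced growth regulator, 30.0-fold and 46.6-fold. Cebpa, a related factor, reached 10.5-fold and 11.4-fold.

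Of the m6A machinery, 10 of 14 eligible genes were methylated and 2 unmethylated (71.4% methylated, same bins 68.2%). Wtap, of the writer complex, had 37.8 and 33.0 CPM and a best enrichment of 11.1-fold and 30.6-fold. The eraser Fto had 10 and 19 summits over a span of 355067 bases, at 12.7 and 13.8 CPM, whereas the eraser Alkbh5, at 46.8 and 46.5 CPM, had none in HF. Readers Ythdf2 and Ythdf3 were methylated, and Hnrnpa2b1, an RNA-binding protein also described as a reader, was not. The catalytic writers Mettl3 (12.8 and 9.59 CPM) and Mettl14 (10.9 and 8.30 CPM) missed the level floor in one library and were not classed.

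Splicing factors (23 of 51 methylated, 14 unmethylated, same bins 45.7%), translation factors (15 of 43 and 18, same bins 46.1%) and aminoacyl-tRNA synthetases (12 of 21 and 4, same bins 51.3%) held members of both classes. Luc7l2, a methylated splicing factor, and Ddx5, an unmethylated RNA helicase, were both lower in RNC (log2 fold change -0.95 ± 0.18 SE and -1.66 ± 0.17 SE, edgeR adjusted p = 0.0430 and 0.0352). Eprs, the methylated glutamyl-prolyl-tRNA synthetase, was higher, with 114 and 89.7 CPM in mRNA and 244 and 261 CPM in RNC (log2 fold change 1.17 ± 0.20 SE, edgeR adjusted p = 0.0399). Its unmethylated counterpart Aars, for alanine, had 205 and 177 CPM in mRNA and 338 and 387 CPM in RNC and did not pass (log2 fold change 0.78 ± 0.17 SE, edgeR adjusted p = 0.0576).

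**Figure D5:**
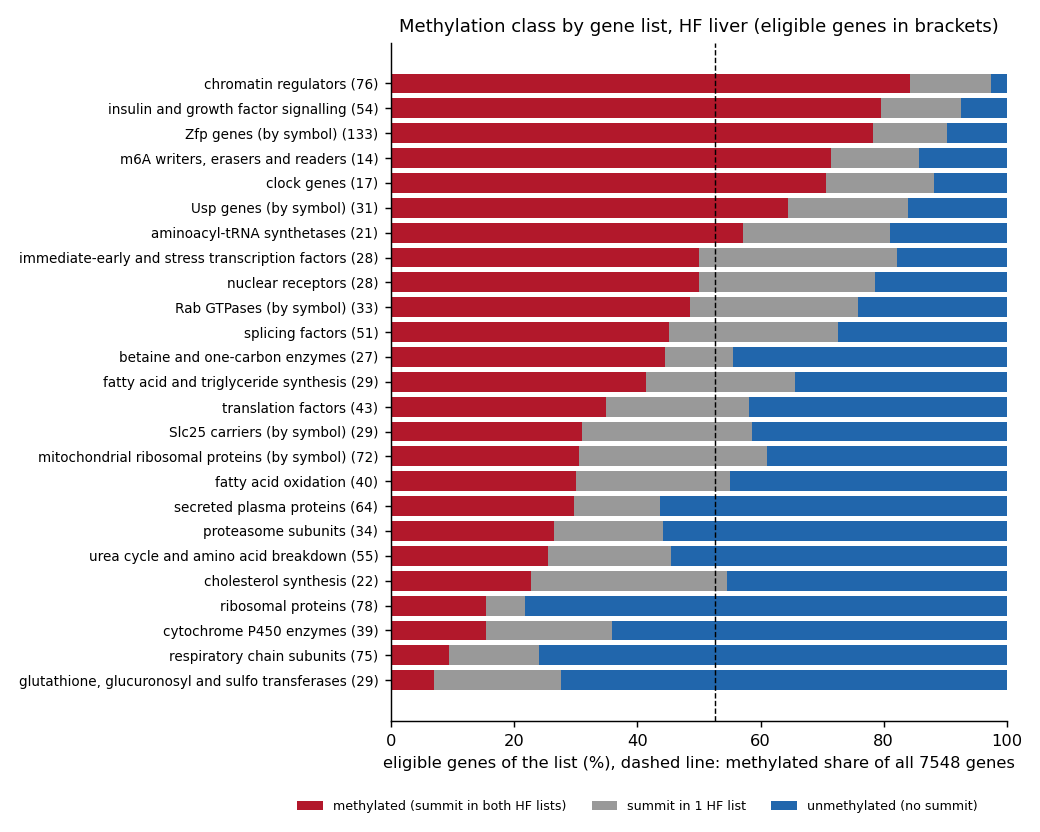
Share of the eligible genes of each list (bars, percent, number of eligible genes in brackets) that were methylated, had a summit in 1 HF list or were unmethylated; the dashed line is the methylated share of all 7548 genes. Chromatin regulators (84.2%) and growth factor signalling (79.6%) lie far to the right of the line, and respiratory chain subunits (9.33%) and conjugating transferases (6.90%) far to the left.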

How the data were processed

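Each HF and HB library had its own deposited table. Read counts per gene, with splice variants merged and no normalization, and RPKM per longest transcript were deposited by the authors, per the file headers; reads were aligned to RefSeq transcripts, per the labels. Per the labels' protocols, Trimmomatic 0.36 was applied to m6A reads before alignment by TopHat 2.0.13. Other tools named in the submitters' processing notes, without a role, are edgeR, HOMER 4.8, MACS2 2.1.0.20151222, HTSeq 0.6.0, HISAT2 2.0.4 and cutadapt 1.9.3. Peaks were called per library, and the authors deposited a fold enrichment (a ratio over local background), the pileup signal at the summit and the −log10 of the p-value and q-value for each; the pileup and −log10 values were not used. Input libraries of the m6A assay were not used here.

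CPM were counts over the library total. Gene spans came from RefSeq GRCm38.p6, 7532 by accession and 16 by symbol, and promoter sequences from RefSeq for 6149 genes. Peaks carry no strand, and exon models were not used here. RNC was compared with mRNA by edgeR 4.0.16 (TMM, filterByExpr, quasi-likelihood F test, Benjamini-Hochberg adjustment at 0.05, 2 residual degrees of freedom) in R 4.3.3. The code was run on simulated counts of dispersion 0.05, far below the common dispersion of 0.769 in these libraries. That run checks the code and cannot show how reliable the calls are here. DESeq2 1.42.0 was an alternative. Matching took medians within 5 by 5 bins of log2 length and log2 mRNA CPM. Members, gene lists and named genes were chosen with earlier results of these data known. Named genes were, by rule, the 5 most enriched methylated genes with their nearest unmethylated genes, the most abundant, the 4 longest unmethylated and 4 shortest methylated, the 3 highest and lowest ratios per class, up to 3 per list, and a fixed set (the m6A machinery, one-carbon and lipid genes). Genes named only as examples of a list, and those around start sites, were chosen after their values were seen.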

Additional observations from a re-analysis of the deposited data

How the results depend on the processing

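The HF classes are limited by 2 m6A libraries, spans that include introns, and RNC libraries in which many genes had 0 reads. With a level floor of 5 or 20 CPM the length ratio was 2.00 and 2.08, and at 20 CPM the log2 CPM difference was -0.81 and the called methylated genes 310. With peaks of at least 10-fold, 2134 genes were methylated and 3486 unmethylated, the log2 CPM difference -0.57, the length ratio 2.03 and the calls 246 and 489. Without overlapping genes the values were -0.97 and 2.11, and with any base of a peak in the span -0.91. With a site shared within 100 bases (chosen after seeing the data), 2037 genes were methylated, the difference was -0.75, the ratio 2.096 and the called methylated genes 247; fewer genes give fewer calls. Leaving out an m6A list gave -0.59 to -0.54, length ratios of 1.74 to 1.75 and 2511 to 2961 unmethylated genes. Leaving out any 1 library gave matched RNC differences from -0.012 (without m6A replicate 2) to 0.234 (without RNC replicate 2). The unmatched RNC difference was 0.077 without genes of 0 RNC reads. The matched one was -0.061 matched on level only and -0.025 with gene span in place of length (chosen after seeing the data). Called methylated and unmethylated genes numbered 855 and 535 with DESeq2, and 0 and 0 with edgeR without a filter (929 and 569 at an unadjusted p under 0.05). Leaving out an mRNA or RNC library gave 0 to 2435 and 0 to 1167. With a read required in both RNC libraries, 286 methylated genes were called. The causes of these changes were not tested beyond the smaller gene sets. With the replicate number as a block in edgeR, 16 and 28 genes were called (650 and 533 at an unadjusted p under 0.05), with the methylated split turned to 12 higher and 4 lower, from 163 and 318, and the unmethylated one 1 higher and 27 lower; the deviations of same-numbered mRNA and RNC libraries correlated at 0.12 over 7548 genes, and with 2 pairs the numbers are not shown to pair the libraries. Counting summits in exons only was not run, since exon models were not used here.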

Other observations

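Markers of the minor liver cell types fell into both classes. Of 9 eligible markers of sinusoidal endothelial cells, 7 were methylated in HF, among them Stab2, a scavenger receptor, Kdr, the receptor for vascular endothelial growth factor, and Cdh5, the cadherin of endothelial junctions, and 2 were unmethylated, Stab1 and Clec4g. Their median transcript length was 3433 bases. Of 6 eligible Kupffer cell markers 2 were methylated, Clec4f and C1qa, and 1 unmethylated, Csf1r. Of the 10 hepatocyte markers 3 were methylated, Apoa1, Apob and Hnf4a, and 7 unmethylated.

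Families grouped by symbol alone varied as well. Usp deubiquitinases were methylated in 20 of 31 cases (71.0% of all genes in the same length and level bins), Rab GTPases of membrane traffic in 16 of 33 (47.7%), and Slc25 mitochondrial carriers in 9 of 29 (41.9%). In these 3 families 0 to 2 genes were higher and 0 to 3 lower in RNC by edgeR, against 3.96% and 9.18% of all eligible genes.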
